A study of Danio rerio with 15 samples.

Results

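The genes described are mpx, lyz, mmp13a, mpeg1.1, csf1ra, csf1rb, spi1b, lcp1 and coro1a, a set of macrophage and neutrophil genes chosen by name, and all 9 were present among the 23009 genes of the deposited tables. RNA sequencing was done on the heads of zebrafish (Danio rerio) embryos, aged 2 days after fertilization. Wild-type adults were mated naturally, and each library was made from the heads of a pool of 20 embryos, 5 pools in each of 3 groups. The study asked how the head transcriptome responds when ncapg2, which encodes a subunit of the chromosome-compacting condensin II complex, is targeted with Cas9. The first control group was injected with phenol red, a dye used to see the injection, and the second with a guide RNA against ncapg2 alone. The third group was injected with that guide RNA plus Cas9, the nuclease that cuts at the site the guide matches. Embryos with Cas9 and no guide were not analysed here, so Cas9 and the cutting of ncapg2 cannot be told apart. Embryos injected with guide RNA plus Cas9 can be mosaics of edited and unedited cells, and the share of edited cells was not examined here. A pool averages over 20 embryos. Titles and treatment labels give the guide different numbers, so it goes by the name guide RNA throughout.

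Macrophages and neutrophils are the phagocytes of the innate immune system and the first working leukocytes of the zebrafish embryo. Primitive macrophages arise in the anterior lateral mesoderm, spread over the yolk and enter the head, where some settle in the brain and retina and become microglia. Neutrophils form from the same myeloid precursors, fill their granules with enzymes such as myeloperoxidase and lysozyme, and patrol the tissues of the head and trunk. The transcription factor Pu.1, encoded by spi1b, starts the myeloid programme, and the CSF1 receptor carries the survival and migration signal of macrophages.

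Reads counted in the genes of the deposited tables were recovered from the values and summed per library. They lay between 34.97 and 46.46 M (M, mega) in the phenol red group. The guide RNA group had between 39.79 and 49.30 M, and the guide RNA plus Cas9 group between 41.58 and 48.51 M. The targeted gene followed the labels: ncapg2 read 856 ± 69.7 normalized counts (SD, n = 5) with phenol red, 912 ± 73.7 with guide RNA and 428 ± 48.4 with guide RNA plus Cas9. Markers of neurons and of the eye were present in every library, with summed levels of at least 109515 and 84604 normalized counts. Markers of the posterior trunk summed to between 19.9 and 97.1 normalized counts. Libraries are named S1 to S5 (phenol red), S6 to S10 (guide RNA) and S11 to S15 (guide RNA plus Cas9) after their column headings, and column position means the order of a library within its group, so that S1, S6 and S11 stand at position 1. Libraries at the same column position tended to resemble each other across groups. Their deviations from group means had a median r of 0.511, against -0.122 for the other pairs of libraries. The ranges overlapped, since S2 and S12, which share a position, had r = 0.127, below S2 and S14 at 0.360. S1, S6 and S11 had the highest summed levels of the erythroid, the yolk and liver, and the posterior trunk lists. For the erythroid list S2 (30699 normalized counts) lay close to S11 (30946). The sources used here do not say what the libraries at a position have in common. For this reason each group comparison is given without and with column position as a block.

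None of the 9 genes passed the test between any 2 groups after adjustment over all genes. The highest of the 3 group means was 1.30 times the lowest for csf1rb, 1.28 times for lyz, 1.21 times for mpx and 1.18 times for mmp13a, and between 1.04 and 1.12 times for the other 5 genes. In heads with guide RNA plus Cas9 versus guide RNA, limma (adjusted p under 0.05 over 21590 genes) called 0 of 9, beside 0.00463% of all genes, which was 1 gene. Against phenol red it also called 0 of 9, beside 0.00463% of 21580 genes. For guide RNA versus phenol red it called 0 of 9, beside 0% of 21601 genes. With column position as a block the counts stayed at 0 of 9 in each comparison, where 0.0139%, 0.00927% and 0.0185% of all genes were called. No gene of the set had groups that did not overlap in any comparison, and 0.232%, 0.426% and 0.204% of all genes did. The 3 comparisons share their groups, so their values are given side by side and not as separate evidence. In a bulk library of a whole head, fewer cells of a type and less RNA per cell cannot be told apart.

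**Figure D1:**
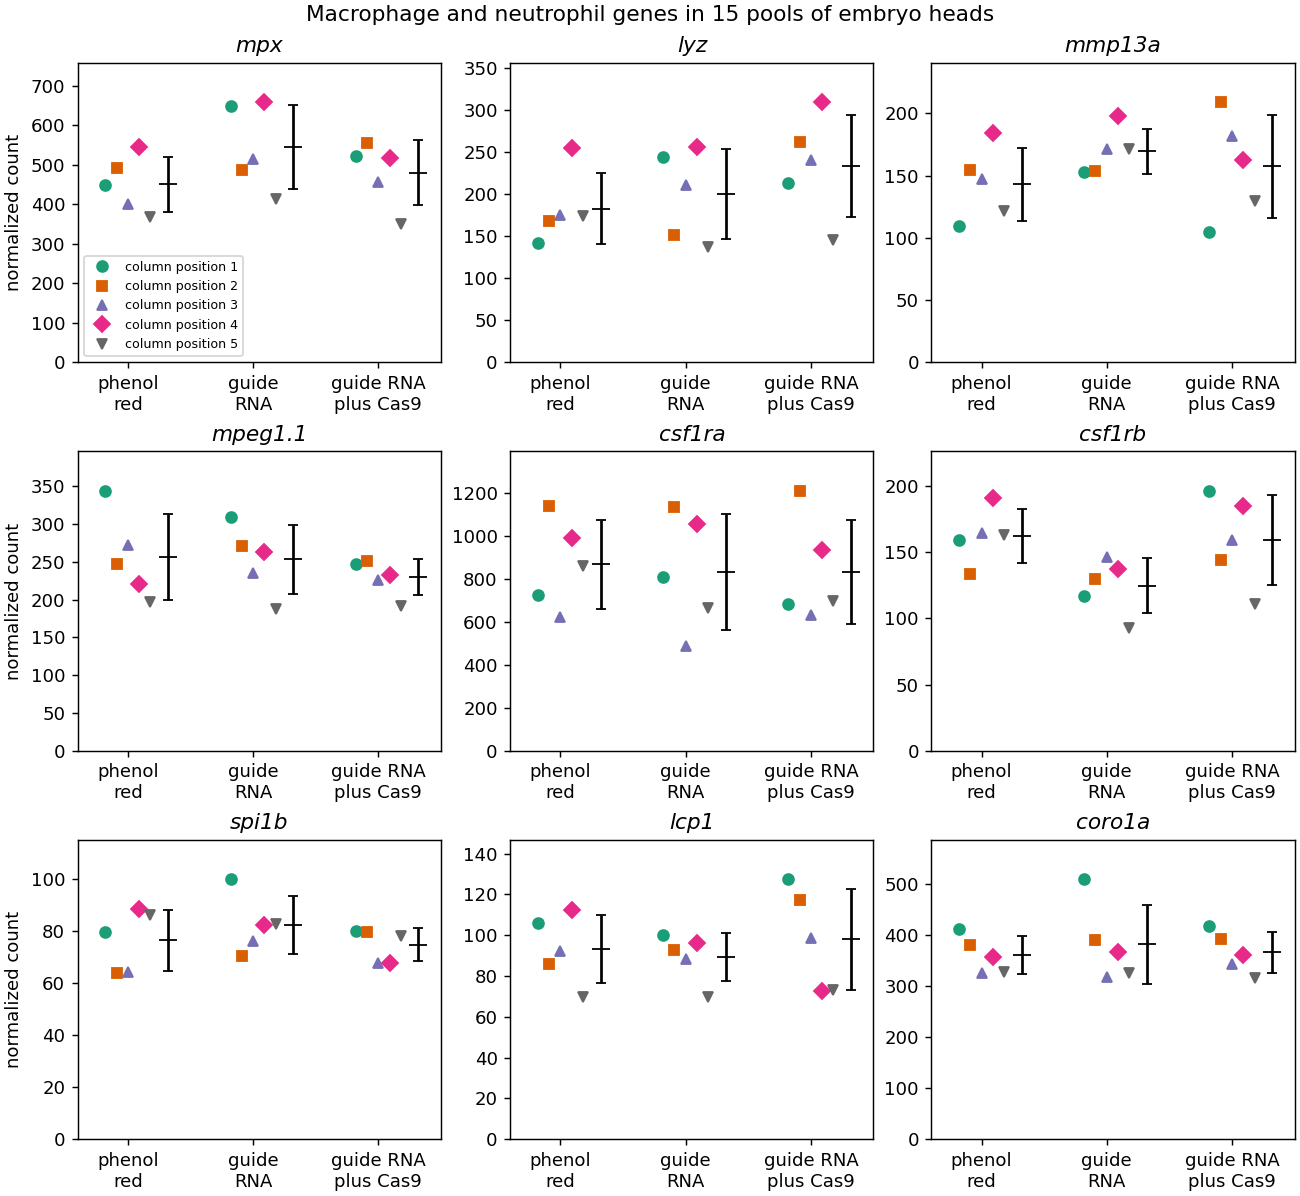
Normalized counts of the 9 genes (vertical axis, linear, from 0) in each of the 15 libraries by group (horizontal axis). Symbols mark the column position of a library, and the black bars show the group mean ± SD (n = 5). The groups overlap for every gene, and the symbols keep a similar order in each group for csf1ra, mpeg1.1 and coro1a.

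The genes of the set on the neutrophil list, mpx, lyz and mmp13a, had overlapping ranges in the 3 groups. Their means were lowest with phenol red, which the rest of the neutrophil list did not share. Of its 21 tested genes, 8 were positive for guide RNA plus Cas9 versus phenol red (median log2 fold change -0.03). For guide RNA versus phenol red 10 of 21 were positive (median -0.01). mpx (ENSDARG00000019521) encodes myeloperoxidase, the granule enzyme that makes hypochlorous acid and the standard neutrophil marker of zebrafish. It read 448, 492, 401, 544 and 369 normalized counts in S1 to S5, 648, 488, 515, 659 and 414 in S6 to S10, and 523, 556, 456, 519 and 349 in S11 to S15. The 2 highest libraries, S6 and S9, were guide RNA libraries, the lowest library of each group stood at column position 5, and the 3 groups overlapped. The means were 451 ± 70.2, 545 ± 106 and 481 ± 81.9 normalized counts (SD, n = 5 each). In guide RNA versus phenol red heads the log2 fold change of mpx was 0.26 ± 0.14 (SE; limma adjusted p = 1.0), positive at 4 of 5 column positions. With the block its SE was 0.07 and its unadjusted limma p was 0.0017, but the adjusted p was 0.324. Between guide RNA plus Cas9 and guide RNA the log2 fold change was -0.18, with a SE of 0.15 without the block and 0.07 with it, and the blocked limma adjusted p was 0.985.

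lyz (ENSDARG00000057789) encodes lysozyme, which digests bacterial cell walls and in zebrafish larvae marks mainly neutrophils. Its normalized counts were 142, 167, 175, 254 and 174 in S1 to S5, 244, 151, 211, 256 and 137 in S6 to S10 and 213, 261, 239.9, 309 and 145 in S11 to S15. Column position 4 held the highest library of each group. The lowest library stood at position 5 in both groups that received the guide RNA and at position 1 with phenol red. The guide RNA plus Cas9 mean was the highest of the 3 (234 ± 60.6 normalized counts, against 199.7 ± 53.7 with guide RNA and 182 ± 42.2 with phenol red), and the ranges overlapped. Against phenol red the log2 fold change was 0.34 ± 0.20 (SE, 95% interval -0.08 to 0.77; limma adjusted p = 1.0). It was positive at 4 of 5 positions. The block brought the SE to 0.12, the 95% interval to 0.09 to 0.59 and the limma adjusted p to 0.495. Against guide RNA the log2 fold change was 0.23 ± 0.22 (SE, 95% interval -0.26 to 0.71), also positive at 4 of 5 positions. With the block the SE was 0.11 and the 95% interval -0.02 to 0.47 (limma adjusted p = 0.985).

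mmp13a (ENSDARG00000012395) encodes a matrix metalloproteinase that cleaves fibrillar collagen. It stands on the neutrophil list, but which cells of the head express it was not tested. It read 109, 154, 147, 184 and 121 normalized counts in S1 to S5, 153, 153, 171, 198 and 171 in S6 to S10 and 105, 209, 181, 163 and 129.6 in S11 to S15. The lowest library of each group was the one at column position 1, although S6 lay close to S7. The log2 fold change of guide RNA versus phenol red, 0.26 ± 0.14 (SE), was the same size as that of mpx, and it too was positive at 4 of 5 positions (blocked limma adjusted p = 0.503). Against guide RNA and against phenol red, guide RNA plus Cas9 heads gave -0.14 ± 0.17 and 0.12 ± 0.19 (SE).

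Among the macrophage genes, mpeg1.1 and csf1ra had means that lay close together in the 3 groups, while csf1rb was lowest with guide RNA. mpeg1.1 (ENSDARG00000055290) encodes perforin-2, a pore-forming protein of phagosomes whose promoter is used to label macrophages in living fish. It read 344, 247, 272, 220.2 and 197 normalized counts in S1 to S5, 309, 272, 235, 263 and 187 in S6 to S10 and 247, 252, 226, 232 and 191 in S11 to S15. S1 and S6, both at column position 1, were the highest libraries, and position 5 held the lowest library of every group. The log2 fold changes of guide RNA plus Cas9 were -0.13 ± 0.13 (SE) against guide RNA, with a 95% interval of -0.41 to 0.15, and -0.14 ± 0.14 against phenol red. Guide RNA and phenol red differed by -0.01 ± 0.16.

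csf1ra (ENSDARG00000102986) encodes a receptor for CSF1 and interleukin 34, and besides macrophages it is expressed in xanthophores, the yellow pigment cells of the fish. Its normalized counts were 724, 1139, 624, 989.8 and 858 in S1 to S5, 806, 1136, 488, 1057 and 662 in S6 to S10 and 681, 1211, 633, 932 and 699 in S11 to S15. In every group the highest library was at column position 2 and the lowest at position 3. The group means, 867 ± 206, 829.7 ± 269.6 and 831 ± 242 (SD, n = 5 each), were far closer than the libraries of a group were. The log2 fold change between guide RNA plus Cas9 and guide RNA was 0.02, with a 95% interval of -0.55 to 0.60 without the block. With the block the interval was -0.14 to 0.19, so a change of more than 0.19 in either direction lay outside it.

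csf1rb (ENSDARG00000053624) encodes the second CSF1 receptor of zebrafish, a duplicate of csf1ra, and it had the largest group difference of the set. It read 159, 133, 164, 191 and 163 normalized counts in S1 to S5, 117, 129.97, 146, 137 and 92.6 in S6 to S10 and 196, 144, 159, 184 and 111 in S11 to S15. At each of the 5 column positions the guide RNA library was the lowest of the 3, and yet the groups overlapped, since S8 and S9 lay above S2. The means were 162 ± 20.6 with phenol red, 125 ± 20.9 with guide RNA and 159 ± 33.9 with guide RNA plus Cas9 (SD, n = 5 each). Guide RNA versus phenol red gave a log2 fold change of -0.39 ± 0.14 (SE, 95% interval -0.68 to -0.09), with an unadjusted limma p of 0.0152 and an adjusted p of 1.0. With the block the SE was 0.11, the unadjusted limma p 0.0025 and the adjusted p 0.356. Guide RNA plus Cas9 versus guide RNA gave 0.34 ± 0.17 (SE), and 0.10 as SE with the block, where the unadjusted limma p was 0.0044 and the adjusted p 0.943. Both comparisons use the same 5 guide RNA libraries, so the 2 differences are not separate observations. Guide RNA plus Cas9 and phenol red differed by -0.05 ± 0.15 (SE). A shift in the same direction at all 5 positions was seen in 1 of 9 genes in each of these comparisons, beside 6.38% of all genes for guide RNA plus Cas9 versus guide RNA and 7.47% for guide RNA versus phenol red.

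At an unadjusted limma p under 0.05 and without the block, the set counted 0 of 9 for guide RNA plus Cas9 versus guide RNA (background 0.917% of all genes), 0 of 9 against phenol red (2.29%) and 1 of 9, csf1rb, for guide RNA versus phenol red (1.04%). With column position as a block the counts were 2 of 9 (csf1rb and mpx; background 4.55%), 1 of 9 (lyz; 9.12%) and 3 of 9 (mpx, csf1rb and mmp13a; 7.71%). None of these passed the adjustment over all genes. The members' median log2 fold changes were -0.05, 0.02 and 0.07 in the same order of comparisons, where the medians of all genes were 0.002, 0.005 and 0.008. Positive values were found for 4, 5 and 5 of the 9 genes, and for 50.9%, 52.2% and 54.7% of all genes. In the authors' deposited table, csf1rb stood at a log2 fold change of -0.38 ± 0.17 (SE) for guide RNA over phenol red with an adjusted p of 1.0. The deposited tables called 0 of the 9 genes in any comparison, and their share of all genes called is not given here. DESeq2 on recovered reads called 1, 2 and 0 of all genes in the same order of comparisons, so few calls were made in any set.

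**Figure D2:**
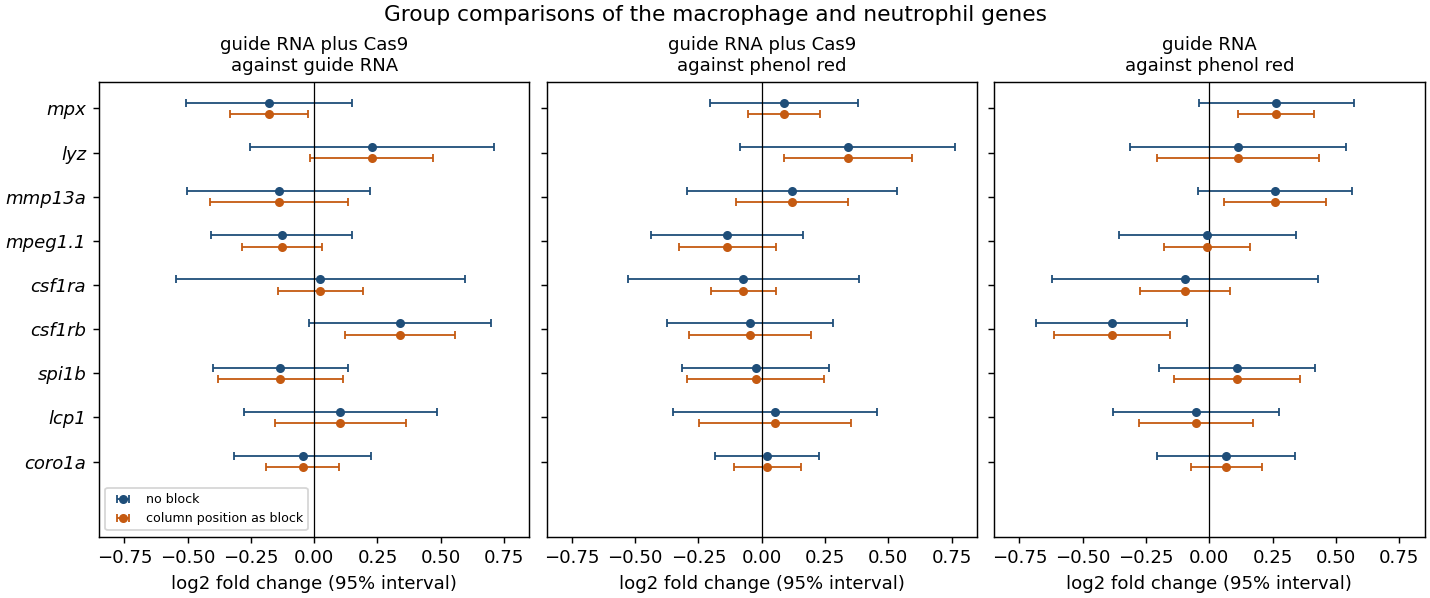
Log2 fold changes of the 9 genes (horizontal axis) with 95% intervals from limma, for the 3 group comparisons. Blue points are fits without a block and orange points fits with column position as a block. The intervals of csf1rb lie below 0 for guide RNA versus phenol red in both fits, and the block shortens the interval of csf1ra most.

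The transcription factor and the leukocyte cytoskeleton genes showed small group differences. spi1b (ENSDARG00000000767) encodes Pu.1, which drives the myeloid fate in blood precursors. Its normalized counts were 79.5, 63.9, 64.1, 88.3 and 86.1 in S1 to S5, 99.9, 70.3, 76.1, 82.2 and 82.5 in S6 to S10 and 79.9, 79.6, 67.5, 67.8 and 78.2 in S11 to S15. S6 was the highest library and S2 the lowest, and the guide RNA plus Cas9 range lay within that of the phenol red group. The log2 fold changes of spi1b were -0.13 ± 0.12 for guide RNA plus Cas9 versus guide RNA, -0.02 ± 0.13 against phenol red and 0.11 ± 0.14 for guide RNA versus phenol red (SE).

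lcp1 (ENSDARG00000023188) encodes L-plastin, which bundles actin filaments in all leukocytes. It read 106, 85.9, 92.1, 113 and 69.8 normalized counts in S1 to S5, 99.9, 92.7, 88.2, 96.3 and 69.7 in S6 to S10 and 128, 117, 98.8, 72.8 and 73.2 in S11 to S15. The libraries at column position 5 were low in all 3 groups, and the guide RNA plus Cas9 group held both the highest library, S11, and a low one, S14. coro1a (ENSDARG00000054610) encodes coronin 1A, an actin regulator of leukocytes. Its normalized counts were 413, 382, 325, 357 and 328 in S1 to S5, 511, 391, 317, 367 and 326 in S6 to S10 and 418, 393, 345, 362 and 317 in S11 to S15. Position 1 was highest in every group, and the group means lay between 361 ± 37.3 and 383 ± 77.8 (SD, n = 5). The log2 fold changes of guide RNA plus Cas9 versus guide RNA were 0.10 ± 0.18 for lcp1 and -0.05 ± 0.13 for coro1a (SE). Against phenol red they were 0.05 ± 0.19 and 0.02 ± 0.09.

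Column position, with 4 degrees of freedom against 2, took a larger share of the variation than group did for all 9 genes. For csf1rb the shares were close, 37.7% and 35.2%, and per degree of freedom the group share was the larger. A limma F test of the 5 positions with group in the model had an adjusted p under 0.05 for 8 of 9 genes, but 47% of all 21902 genes tested passed as well, so the share of the set stands beside that background. Without the 3 libraries at position 5 the count was 4 of 9, beside 42.3% of all genes. Leaving out position 1, 2, 3 or 4 in turn gave 6, 8, 7 and 6 of 9, beside 19.9%, 43.6%, 39.4% and 44.4% of all genes. edgeR's quasi-likelihood F test on recovered reads gave 7 of 9, beside 47.3%. Positions accounted for 89.6% of the sum of squares of csf1ra, 85.9% of coro1a, 75.3% of mpeg1.1, 67.1% of mpx and 62.4% of lcp1. The median over all genes was 58.4%. The shares of mmp13a (56.2%), lyz (55.2%), spi1b (47.8%) and csf1rb (37.7%) lay below that median. The group share was 1.2% for csf1ra and 35.2% for csf1rb, the gene with the highest share, and 6.85% in the median over all genes. spi1b was the gene that did not pass (limma F test adjusted p = 0.271).

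The genes did not share one order of positions. The position mean of csf1ra was 1162 normalized counts at position 2 and 582 at position 3, a ratio of 2.00 (n = 3 libraries each; limma F test adjusted p = 1.5e-05). coro1a stood at 447 ± 55.1 at position 1 and 324 ± 6.14 at position 5 (SD, n = 3; limma F test adjusted p = 0.00087), and mpeg1.1 at 300.2 ± 49.4 and 192 ± 4.78 (adjusted p = 0.0017). lcp1 had the same highest and lowest positions, with 111 ± 14.6 and 70.9 ± 2.02 (adjusted p = 0.0341 in the limma F test). Position 1 had the highest mean for 4 of the 9 genes, these 3 and spi1b (86.4 normalized counts), while the receptor genes csf1ra and csf1rb were highest at positions 2 and 4. The means of mpx, lyz and mmp13a were highest at position 4, with 574, 273 and 181 normalized counts. The summed level of the 21 matched genes of the neutrophil list, which holds these 3, was not: it was highest at position 1, with 5582 normalized counts against 5277 at position 4. mpx and lyz were lowest at position 5 (377 and 152), while mmp13a was lowest at position 1 (122). The limma F test adjusted p was 0.00049 for mpx, 0.0225 for lyz, 0.0159 for mmp13a and 0.0457 for csf1rb, which was highest at position 4 (171) and lowest at position 5 (122).

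**Figure D3:**
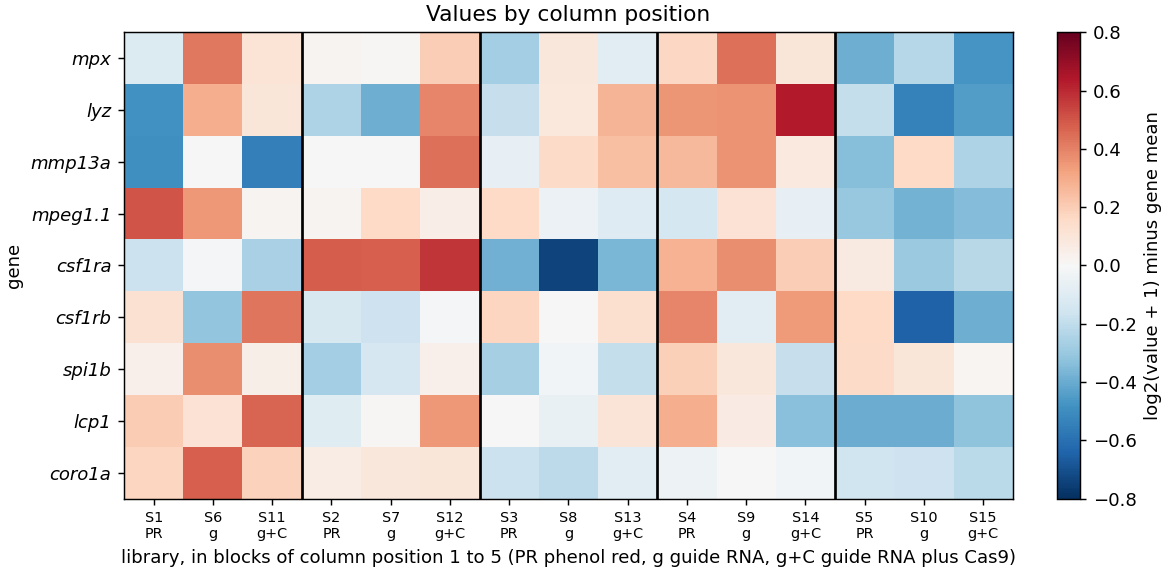
Each cell shows the log2(value + 1) of a gene (rows) in a library (columns) minus the mean of that gene over 15 libraries, with libraries ordered by column position and black lines between positions. csf1ra is high in all 3 libraries at position 2 and low at position 3, and most genes are low at position 5.

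Summed levels of markers of other cells also differed in size between column positions. The erythroid list (8 of 9 symbols matched, 6 of 8 tested genes with an F test adjusted p under 0.05 in limma, beside 47% of all genes) summed to between 17695 and 37149 normalized counts with phenol red, between 17511 and 33775 with guide RNA and between 16366 and 30946 with guide RNA plus Cas9. Its position means ran 33957, 27064, 19968, 17190 and 22121 from position 1 to 5. The yolk and liver list (6 of 8 matched, 0 of 6 past the F test) ranged from 5567 to 48402, from 4320 to 39922 and from 759.9 to 36106 normalized counts in the same group order, and its mean at position 1 was 41477. The posterior trunk list (4 of 7 matched, 3 of 3 tested genes past the F test) ranged from 19.9 to 81.6, from 21.1 to 97.1 and from 22.8 to 80.8 and was also highest at position 1, with a mean of 86.5. None of the matched markers was at 0 in every library. These lists were high in S1, S6 and S11, where mpeg1.1 (S1 and S6) and coro1a were high as well, and their part in the values of the myeloid genes was not tested.

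The xanthophore list (6 of 7 matched, 5 of 6 tested genes with an F test adjusted p under 0.05 in limma, beside 47% of all genes) summed to between 7033 and 9566 normalized counts with phenol red, 7150 and 9633 with guide RNA and 6237 and 9205 with guide RNA plus Cas9. Its position means were 8990, 9428, 6956, 7618 and 8278, so it was highest at position 2 and lowest at position 3. csf1ra had the same highest and lowest positions, but its second highest mean was at position 4 (993 normalized counts), where the xanthophore sum was second lowest. xdh, a xanthophore gene of pteridine synthesis, was highest at position 1 (514 normalized counts) and lowest at position 3 (259). gch2, which starts pteridine synthesis, stood at 3797 at position 2 and 1870.1 at position 3. The part of xanthophores in the csf1ra values was not tested.

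**Figure D4:**
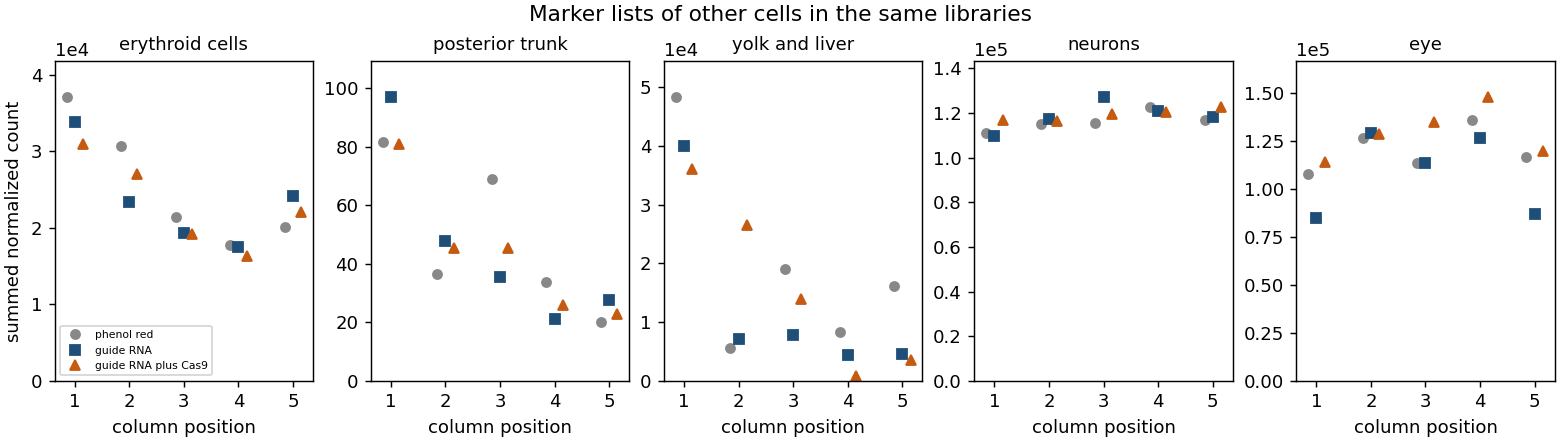
Summed normalized counts (vertical axes, linear, from 0) of the marker lists of erythroid cells, posterior trunk, yolk and liver, neurons and eye in each library, by column position (horizontal axes) and group (symbols). The erythroid, posterior trunk, and yolk and liver sums are highest at position 1 in all 3 groups, and the neuron sums stay between 109515 and 127378. The eye sums run from 84604 to 148018 and are lowest at position 1 in all 3 groups.

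The variation between libraries was larger than counting error for most of the genes. Over 15 libraries the coefficient of variation was 26.5% for csf1ra, 26.1% for lyz, 20.0% for csf1rb, 19.7% for mmp13a, 18.9% for lcp1, 18.4% for mpx, 17.4% for mpeg1.1 and 13.9% for coro1a. Poisson counting of the reads alone would give 3.44%, 6.94%, 8.19%, 7.95%, 10.3%, 4.48%, 6.36% and 5.17%. spi1b, at 12.7% against a counting value of 11.3%, varied little beyond it, and its lowest read count in any library was 55. csf1ra had the widest span, from 488 normalized counts in S8 to 1211 in S12, a ratio of 2.48.

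Co-variation within the set was positive in most pairs but no pair passed the adjustment over the 36 pairs. Pearson r of log2(value + 1) over 15 libraries was positive in 31 of 36 pairs with a median of 0.24, and libraries share their depth scaling and column position. The pair with the highest r was mpeg1.1 and coro1a (r = 0.72, Spearman rho = 0.65, permutation p = 0.00258 and 0.0105, adjusted p = 0.0742 and 0.126). It was 0.71 without S1 and S10, the libraries farthest from the median of mpeg1.1, and 0.10 after group and position means were removed. The neutrophil pair mpx and lyz had r = 0.70 and rho = 0.76 (permutation p = 0.00412 and 0.0015, adjusted p = 0.0742 and 0.054). That pair stood at 0.62 without S9 and S15 and at 0.84 after group and position means were removed (permutation p = 0.00461, adjusted p = 0.166). With 3 libraries at a position, no r could be had within a position. The 2 receptors csf1ra and csf1rb had r = 0.03 (permutation p = 0.923). After the means of group and position were removed, r was positive in 25 of 36 pairs, with a median of 0.349 and 0 pairs past the adjustment.

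**Figure D5:**
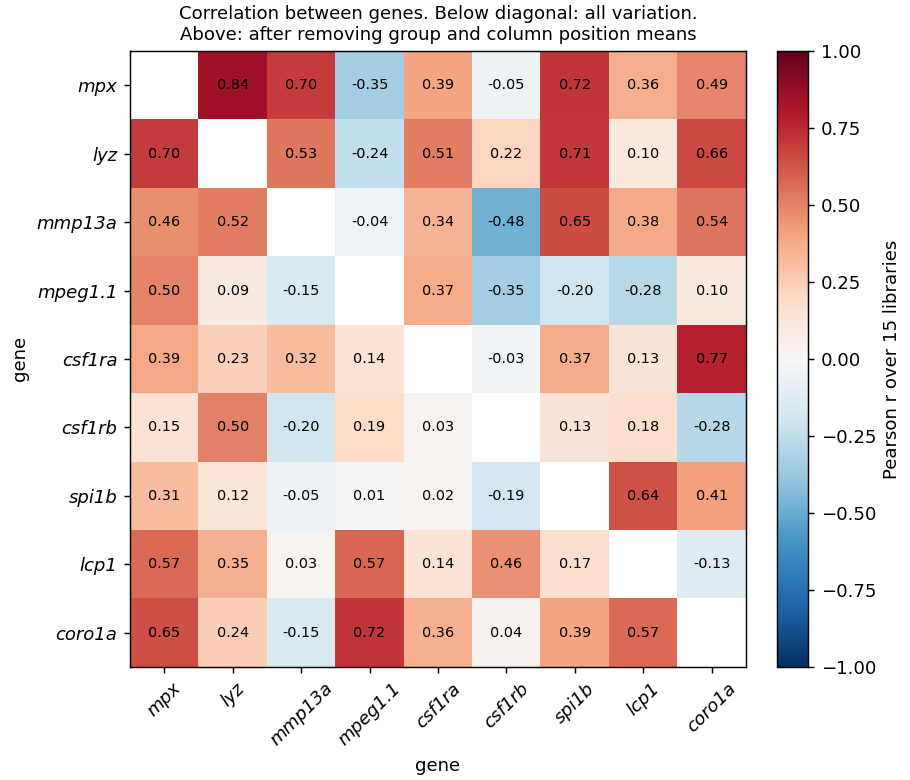
Pearson r between the 9 genes over 15 libraries, on log2(value + 1), below the diagonal, and after removal of group and column position means above it. mpx and lyz stand at 0.70 below and 0.84 above the diagonal, while mpeg1.1 and coro1a stand at 0.72 below and 0.10 above it.

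Genes outside the set were ranked by how closely they followed mpx or mpeg1.1 over the 15 libraries, among 18462 genes with a mean of at least 50 normalized counts. The 8 genes nearest to mpx were led by npsn, which encodes nephrosin, a protease of fish neutrophils (r = 0.91, and 0.92 after group and position means were removed). smarcal1 (0.88), itgb2 (0.87), SPDEF (0.83) and zbtb48 (0.83) followed, with 3 genes that have clone names. After group and position means were removed, these 4 stood lower, at 0.56, 0.50, 0.75 and 0.60. itgb2 encodes the beta 2 integrin of leukocytes. The 8 nearest to mpeg1.1 were cyp2p10 (r = 0.92), atp8b3 (0.90), dapk2a (0.89), STXBP6 (0.89), dio3b (0.89), fbxl15 (0.89), map4k2 (0.88) and 1 gene with a clone name, and none of them was on a list of myeloid genes. After group and position means were removed, the named genes stood lower, between 0.47 (map4k2) and 0.75 (fbxl15), with cyp2p10 at 0.66. Genes chosen as the nearest of many have a high r by that choice, so these values describe the libraries and carry no test.

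Other genes of the myeloid pathways were read from lists of transcription factors, macrophage and microglia genes, CSF1 receptor ligands, neutrophil genes, CSF3 ligands, leukocyte cytoskeleton and signalling genes, and cytokines and chemokines. Of all these lists, 0 genes passed the limma adjusted p in any group comparison, without or with the block. For guide RNA plus Cas9 versus guide RNA, the 13 transcription factors had a median log2 fold change of -0.03, with 3 of 13 positive. The 21 macrophage genes tested had a median of -0.02 (8 positive), the 21 neutrophil genes -0.03 (6 positive), the 18 leukocyte genes -0.05 (4 positive) and the 8 cytokines and chemokines 0.04 (6 positive). The median of all genes was 0.002, and 50.9% of all genes were positive. Genes of a list can vary together, so their signs are not separate observations. Several of these lists share genes with the set itself.

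Single genes with the smallest p in that comparison did not pass either. p2ry12, the purine receptor that marks microglia, stood at a log2 fold change of 0.57 ± 0.22 (SE, unadjusted limma p of 0.0246, adjusted p = 1.0), and its values ran from 12.8 to 28.1 normalized counts with guide RNA, 29.4 to 42.9 with guide RNA plus Cas9 and 21.0 to 40.7 with phenol red. The lowest guide RNA plus Cas9 library was thus above the highest guide RNA library, whereas phenol red overlapped both (0.232% of all genes did not overlap between guide RNA plus Cas9 and guide RNA). csf1b, a CSF1 ligand, stood at -0.23 ± 0.10, npsn at -0.21 ± 0.10, cyba, a subunit of the phagocyte NADPH oxidase, at -0.14 ± 0.07, and the chemokine gene cxcl12b at 0.14 ± 0.06 (SE). gfi1aa, a transcriptional repressor of blood cells, was at -0.24 ± 0.14 and plek, which encodes pleckstrin, at -0.42 ± 0.25.

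For guide RNA plus Cas9 versus phenol red the median log2 fold changes were -0.08 for the transcription factors (1 of 13 positive) and -0.07 for the macrophage genes (5 of 21). They were -0.03 for the neutrophil genes (8 of 21), -0.05 for the leukocyte genes (6 of 18) and -0.11 for the cytokines and chemokines (2 of 8). Over all genes the median was 0.005, and 52.2% were positive. ptpn6, the phosphatase Shp1 of blood cells, stood at -0.37 ± 0.15 (SE, unadjusted limma p of 0.0319, adjusted p = 1.0). il1b, the inflammatory cytokine, was at -0.38 ± 0.24 and apoeb, an apolipoprotein gene used as a microglia marker, at -0.13 ± 0.07. For guide RNA versus phenol red the medians were -0.03, -0.07, -0.01, -0.01 and -0.10, beside 0.008 for all genes. In the same order of lists, 5 of 13, 4 of 22, 10 of 21, 8 of 18 and 1 of 8 were positive, beside 54.7% of all genes. irf8, a transcription factor of macrophages, stood at -0.21 ± 0.14 (SE), the cathepsin gene ctss2.1 at 0.28 ± 0.18 and tgfb1a at -0.10 ± 0.05.

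The ligands of the receptors were measured as well. The CSF1 receptor ligands csf1a, csf1b and il34 had log2 fold changes of 0.12 ± 0.12, -0.23 ± 0.10 and -0.05 ± 0.13 for guide RNA plus Cas9 versus guide RNA (SE), and of 0.08 ± 0.13, -0.09 ± 0.08 and 0.02 ± 0.15 against phenol red. The neutrophil growth factors csf3a and csf3b were at -0.26 ± 0.35 and -0.15 ± 0.29 against guide RNA, and their sum was between 16.8 and 44.9 normalized counts in all libraries. The complement genes c1qa and c1qb of the macrophage list stayed at or under 13.04 and 10.9 normalized counts and did not pass the filter on low values. c1qc, also on that list, did pass it over all libraries together. il1b, at position means between 16.2 and 25.1 normalized counts, was low as well.

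By column position, 4 of 13 transcription factors, 11 of 22 macrophage genes, 1 of 3 CSF1 receptor ligands, 0 of 2 CSF3 ligands, 9 of 21 neutrophil genes, 8 of 18 leukocyte genes and 0 of 8 cytokines and chemokines had a limma F test adjusted p under 0.05, beside the 47% of all genes. cebpb and cebpa, transcription factors of the granulocyte line that other tissues such as liver also express, were highest at position 1, with means of 460.3 and 951 normalized counts against 265 and 572 at position 5. slc7a7, an amino acid transporter gene of microglial precursors, was also highest there (349.9, and 209 at position 4), and so were il6r (176, and 108 at position 3) and ptpn6 (165, and 108 at position 5). mertka, a receptor for dying cells, was highest at position 1 (378) and lowest at position 5 (259.9). csf1a was highest at position 2 (188). syk, a kinase of immune receptors, was lowest at position 2 (531) and highest at position 3 (709). Lists for other cells and tissues, some of them outside the head, also held 0 genes called between groups. By column position 0 of 1 mast cell, 2 of 5 lymphoid, 1 of 1 thrombocyte, 5 of 10 endothelial, 5 of 8 epidermal, 4 of 6 neuronal, 5 of 6 eye, 3 of 3 posterior trunk and 0 of 6 yolk and liver genes were called.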

How the data were processed

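RNA came from the heads of pooled embryos, and polyadenylated RNA was selected on oligo-dT beads for a stranded library kit, per the labels' protocols. The tools named in the submitters' processing notes are STAR, HTSeq, DESeq2, cutadapt, Trim Galore and bcl2fastq. The sources used here do not give their versions, the genome build, the annotation or the strand setting. Each of the 3 deposited tables covers 2 groups and holds a normalized signal per gene and library, which per the file headers is a normalized expression value. All values of a library (100%) were whole multiples of its smallest value above 0, within 0.001 of a read, so the signal equals a read count over a size factor. The authors' log2 fold changes, their SE, a Wald statistic (unit score) and p-values stand in the same deposited tables. Levels are not compared between genes, because the tables give no gene length. The samples are separate pools of embryos, and the p-values reflect spread from pool to pool. Without the block, that spread includes the differences between column positions, and pools at the same position are treated as unrelated. Correlation tests on all variation likewise permuted the libraries without regard to position. The sources do not place the libraries on lanes, so how lanes relate to group or column position is not known.

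A library column belongs to the group shared by the 2 tables that hold it, and it carries no replicate number. Genes that reached a value of 10 in 5 or more libraries were fitted as log2(value + 1) with limma 3.58.1 (trend, robust) in R 4.3.3 on the 2 groups compared. P-values were adjusted by Benjamini-Hochberg over all genes fitted, with a threshold of 0.05. Fold changes on that scale understate the change of low genes. Column position was tested with an F test on all 15 libraries with group in the model. As a check of pairing by column position, deviations from group means correlated between 0.127 and 0.782 in the 15 pairs of libraries at the same position (median 0.511) and between -0.537 and 0.360 in the other 60 pairs. Correlations between genes used two-sided permutation tests with 100000 resamples. Where group or position means were removed, the remaining variation was first written as 1 coordinate per residual degree of freedom. These coordinates were permuted with random changes of sign, so those p-values depend on the coordinates chosen. The alternatives were edgeR 4.0.16 (quasi-likelihood) and DESeq2 1.42.0 on recovered counts, pseudocounts of 0.5 and 5, a filter of 50, TMM rescaling, no filter, 1 fit of all groups, the block, and each library left out. The fits were tested on simulated data. The genes described and the gene lists (157 of 179 symbols in 18 lists matched) were chosen with earlier results of these data known. Genes named from a list are the up to 4 with the smallest p in a comparison. Reads of near-identical gene copies could be split by the counting, so values of such genes are uncertain. Counting error is Poisson error of reads only.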

Additional observations from a re-analysis of the deposited data

How the results depend on the processing

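No call of a macrophage or neutrophil gene between groups was gained or lost under any setting tried. The filters, the block and the fit of all groups together leave the fold change of a gene as it is. Refits under those settings thus keep their direction by design and are no check of it. The 27 fold changes were refitted 270 times under other tools, filters, pseudocounts, the block or a pair of libraries left out. Of these refits, which include those fixed by design, 266 kept their direction. The other 4 changed sign without both libraries at column position 1, a setting chosen after seeing the data: coro1a for guide RNA plus Cas9 versus guide RNA (0.015), lcp1 for guide RNA plus Cas9 versus phenol red (-0.0023), and lyz and mpeg1.1 for guide RNA versus phenol red (-0.053 and 0.029). Of 270 refits that left out 1 library, 31 changed sign. The ranges of log2 fold change were -0.15 to 0.154 for csf1ra, -0.00055 to 0.20 for lcp1 and -0.108 to 0.0638 for coro1a in guide RNA plus Cas9 versus guide RNA. Against phenol red they were -0.219 to 0.0345 for csf1ra, -0.129 to 0.076 for csf1rb, -0.0843 to 0.0312 for spi1b, -0.0528 to 0.148 for lcp1 and -0.0271 to 0.0726 for coro1a. In guide RNA versus phenol red they were -0.226 to 0.0781 for csf1ra, -0.0963 to 0.105 for mpeg1.1, -0.151 to 0.0335 for lcp1 and -0.0424 to 0.129 for coro1a. The cause was not tested.

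With the replicate block, which here is the column position, the counts of all genes called were 3 for guide RNA plus Cas9 versus guide RNA (1 without it), 2 against phenol red (1 without it) and 4 for guide RNA versus phenol red (0 without it), and DESeq2 called 2 for guide RNA plus Cas9 versus phenol red. The titles number the replicates but the columns do not, so the pairing rests on column position. By column position 10285 genes passed, and 4318 without the 3 libraries at position 1. Of the 9 genes, 8 passed (47% of all genes), 7 with edgeR (47.3%), and 6, 8, 7, 6 and 4 without position 1, 2, 3, 4 and 5 in turn (19.9%, 43.6%, 39.4%, 44.4% and 42.3%). Without position 5, csf1rb, lcp1, mpx and mpeg1.1 no longer passed. Fewer libraries enter those fits. After group means alone were removed, 1 of 36 pairs passed the adjustment, mpx and lyz (r = 0.81, permutation adjusted p = 0.0295), against 0 otherwise. Reads limit spi1b and lcp1 most, with lowest read counts in any library of 55 and 73.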

Other observations

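cpa5, a carboxypeptidase gene that marks mast cells in zebrafish, another myeloid lineage, varied more between libraries than any of the 9 genes described. It read 91.1, 35.2, 28.0, 66.5 and 161 normalized counts in the phenol red libraries S1 to S5. With guide RNA it read 358, 21.3, 171, 75.2 and 46.8 in S6 to S10, and with guide RNA plus Cas9 81.7, 38.5, 143, 46.9 and 33.6 in S11 to S15. The groups overlapped, and the log2 fold change of guide RNA plus Cas9 versus guide RNA was -0.54 ± 0.74 (SE, limma adjusted p = 1.0). Column position did not pass either (limma F test adjusted p = 0.331).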
